A study of Homo sapiens with 6 samples.

Results

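The proteasome is described here at the level of mRNA, through 40 genes that encode its subunits, its activators, its inhibitor and the chaperones that carry a subunit symbol. The members were chosen by symbol and not by any measured value: PSMA1 to PSMA7, PSMB1 to PSMB7, PSMB10, PSMC1 to PSMC6, PSMD1 to PSMD14, PSME1 to PSME4 and PSMF1. All 40 symbols were found, in 41 of the 62016 gene rows of each table, because PSMD9 has 2 rows. RNA was sequenced from Kasumi-1 cells, an established human acute myeloid leukemia line of myeloblasts that carries the AML1-ETO fusion gene. Cells were collected 4 days after infection with pLKO virus expressing JMJD1C shRNA63, JMJD1C shRNA95 or a control shRNA, giving 3 groups with 2 libraries in each. All 6 libraries come from this 1 line, which also carries AML1-ETO in the controls, and the comparisons asked what depletion of JMJD1C, a JmjC-domain protein of the histone demethylase family KDM3, does to gene expression. The authors also deposited a comparison of AML1-ETO shRNA with its control, for which they took 1 library of either kind out of an earlier series.

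The proteasome is the main protease of the cytosol and nucleus and degrades proteins tagged with ubiquitin. Its core is a barrel of stacked rings, with alpha subunits (PSMA) that form the gate and beta subunits (PSMB) that hold the proteolytic sites, and a regulatory cap of ATPases (PSMC) and lid and base subunits (PSMD) that binds, unfolds and feeds in the substrate. Other caps (PSME) open the core without ATP. Subunit genes are known to be induced together by the transcription factor NRF1 (NFE2L1) when the proteasome is inhibited, and leukemia and myeloma cells are known for their sensitivity to proteasome inhibitors.

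Levels are given in FPKM, the fragments of a gene scaled by transcript length and library size, so that they can be compared between genes. Each table holds 1 FPKM value per group, which the authors combined from the 2 libraries, so the spread between libraries is seen only through the error of the fold change and no overlap of single libraries can be read. Controls stand in both JMJD1C tables at 2 slightly different scalings, and each shRNA value is set against the control value of its own table. Errors of log2 fold changes were derived by dividing each fold change by the statistic of the authors' test, and a gene was called where the authors' q-value, the p-value adjusted over the whole table, was under 0.05. JMJD1C itself was at 13.7 FPKM with shRNA63 against 30.4 FPKM in controls, and at 25.1 FPKM with shRNA95 against 29.4 FPKM in controls. Its log2 fold change given by the authors' deposited table fell by 1.15 (error 0.30, q = 0.00214) with shRNA63 and was -0.23 (error 0.30, q = 0.938) with shRNA95. The mRNA level therefore does not check the label of the libraries labelled shRNA95, which are called shRNA95 here by that label alone. Of 8 myeloblast markers, 7 were above 1 FPKM in controls and MPO was not estimated, and their sum was 14859 FPKM with shRNA63 against 6046 FPKM in controls and 8379 FPKM with shRNA95 against 5863 FPKM. With shRNA63 5 of them were called higher and 1 lower, and with shRNA95 3 were called higher and 0 lower. The sum is mostly PRTN3, ELANE and AZU1, whereas KIT was called lower with shRNA63, at 134 FPKM against 245 FPKM. ELANE had 3744.5 FPKM with shRNA63 against 1143 FPKM and 1128 FPKM with shRNA95 against 1109 FPKM. CD34 was called higher with shRNA95, at 249 FPKM against 146 FPKM. With shRNA63 CD34 had 103 FPKM against 151 FPKM and was not called. Of 10 monocyte markers, 5 were called higher with each hairpin, with sums of 233 FPKM with shRNA63 against 109 FPKM in controls and 605 FPKM with shRNA95 against 106 FPKM in controls, while CD14, FCN1 and VCAN were near 0 in every group. These sums are mostly S100A9, at 126 FPKM with shRNA63 against 91.9 FPKM and 429 FPKM with shRNA95 against 89.0 FPKM. LYZ, MNDA, CTSS and TLR2 were called higher with both hairpins. LYZ had 59.0 FPKM with shRNA63 against 7.29 FPKM and 70.7 FPKM with shRNA95 against 7.06 FPKM. S100A9 was called with shRNA95 only, and CSF1R with shRNA63 only. Whether these marker changes, of which some differ between the hairpins, have a part in the levels of proteasome genes was not tested. In these bulk samples a change in the share of a cell type and a change in RNA per cell cannot be told apart.

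No proteasome gene passed the authors' test with either hairpin. All 40 passed the authors' filter for testing in both JMJD1C tables, and none was called by Cuffdiff's q with shRNA63, where 5.12% of all 18271 tested genes were called (2.29% higher and 2.83% lower), and none with shRNA95, where 4.4% of 18006 genes were (2.59% higher and 1.82% lower). At an unadjusted p under 0.05, with no correction, 4 of 40 passed with shRNA63, beside 13.4% of all genes, and 1 of 40 with shRNA95, beside 12.3% of all genes. Those 4 were the core subunits PSMB2, PSMB4 and PSMB7 and the ATPase PSMC1, and the 1 was PSMB7, all with positive log2 fold changes, beside 6.77% of all genes that passed with a positive one with shRNA63 and 7.15% with shRNA95. The smallest q in the authors' deposited table was 0.0765 (PSMB4) with shRNA63 and 0.186 (PSMB7) with shRNA95.

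Most members nevertheless had shRNA values slightly above the control values. In the authors' deposited table the log2 fold change was above 0 for 29 of 40 members with shRNA63, beside 52.1% of all genes and 43.4% of the genes in the same range of control levels. It was above 0 for 32 of 40 members with shRNA95, beside 53.8% of all genes and 58.4% of those at member levels. The median log2((FPKM + 1)/(FPKM + 1)) over members was 0.12 with shRNA63, where all measured genes gave 0.0085 and genes at member levels gave -0.049. With shRNA95 it was 0.17, where all measured genes gave 0.031 and genes at member levels gave 0.063. These counts and medians are descriptions without a test, and both hairpins share their control libraries. For the 17 members whose locus holds no other gene, the median was 0.26 with shRNA63 and 0.16 with shRNA95.

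**Figure D1:**
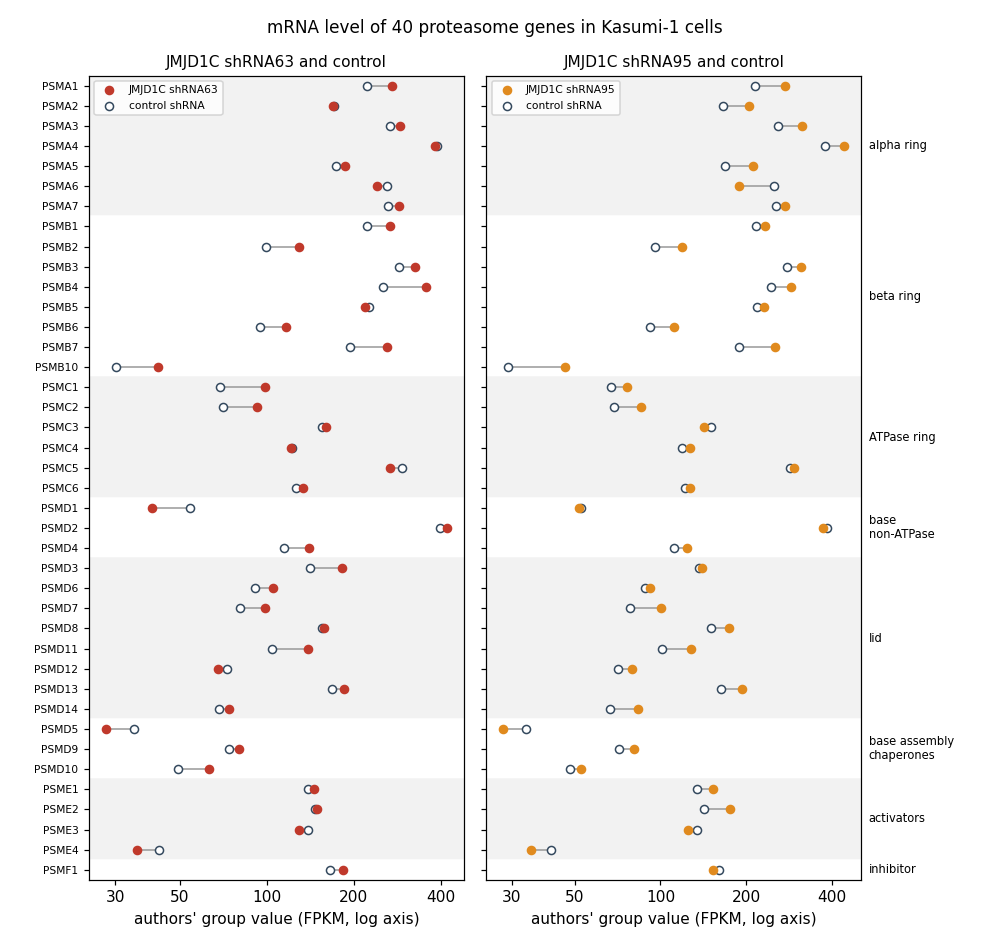
FPKM (log axis) of the 40 proteasome genes with JMJD1C shRNA63 (left panel) and JMJD1C shRNA95 (right panel), filled points, and in the control shRNA group of the same table, open points; each point is the authors' value for a group of 2 libraries. Levels spread from 30.1 FPKM (PSMB10) to 397 FPKM (PSMD2) in the controls of the shRNA63 table, and most filled points lie a little to the right of their open point.

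**Figure D2:**
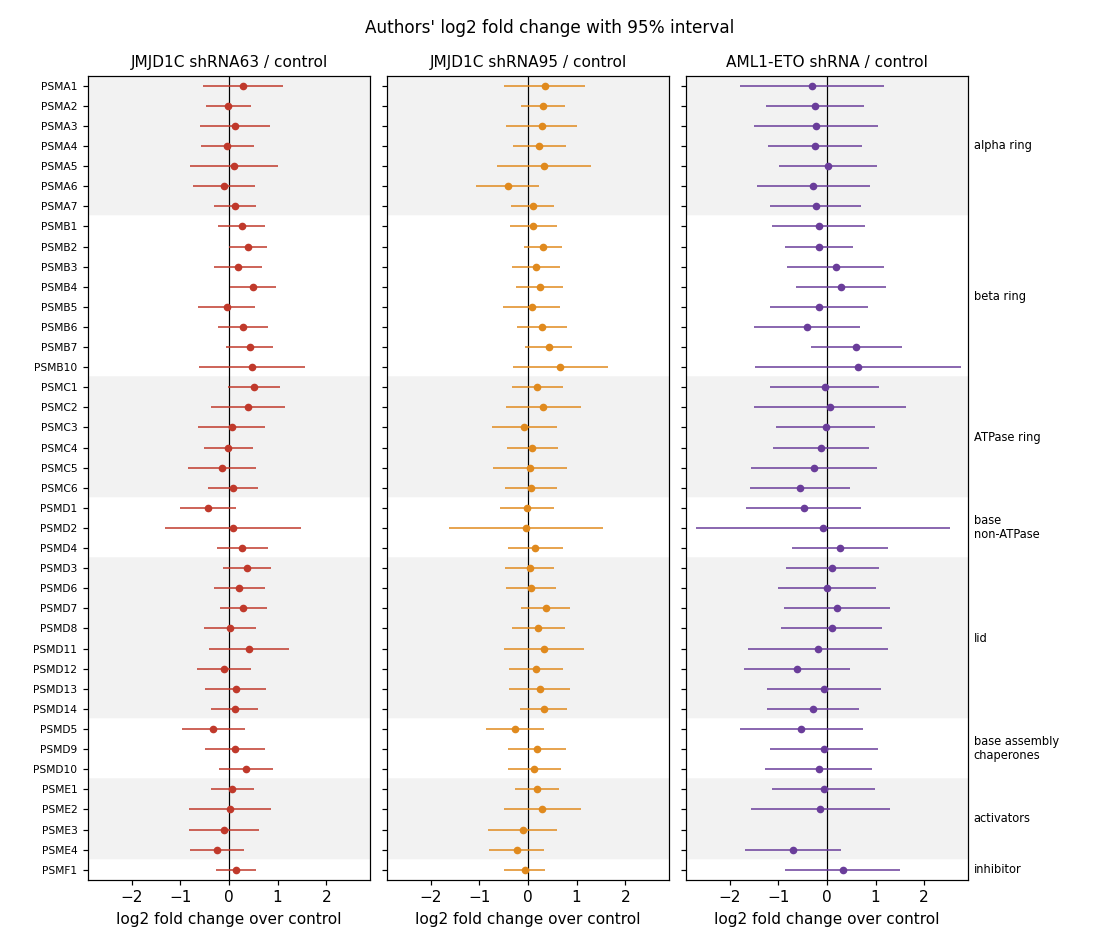
The authors' log2 fold change of each proteasome gene over control, with its 95% interval, for JMJD1C shRNA63, JMJD1C shRNA95 and AML1-ETO shRNA; PSME3 has no value in the third panel. The interval of PSMB4 with shRNA63 is the only one in the plot that does not reach 0. The intervals of the third panel are the widest, with a median error of 0.54.

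The errors set how small a change could have been seen. The median error over members was 0.28 with shRNA63 and 0.28 with shRNA95. The 95% interval lay wholly within a 2-fold change in either direction for 32 of 40 members with shRNA63 and for 31 of 40 with shRNA95. The interval held 0 for 39 of 40 members with shRNA63, all but PSMB4, and for 40 of 40 with shRNA95. With errors scaled to the deposited p-values, which are smaller than the statistic gives, it excluded 0 for 4 members with shRNA63 and 1 with shRNA95. These are the members with an unadjusted p under 0.05, because an error scaled in this way restates that p. In the authors' deposited table the log2 fold changes of members ran between -0.44 (PSMD1) and 0.52 (PSMC1) with shRNA63 and between -0.42 (PSMA6) and 0.67 (PSMB10) with shRNA95.

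The promoters of the members were searched for the antioxidant response element core, TGACNNNGC, the motif through which NRF1 and NRF2 are known to act on subunit genes. RefSeq promoters on GRCh38.p14, from 250 bases before to 50 after the start, were found for 35 of 40 members, 42 promoters in all; PSMA7, PSMB1, PSMB6, PSMB7 and PSMD4 had no match. On either strand, the core stood in 12 of the 42 promoters (28.6%), beside 13.3% of all 35116 promoters. The 11 sites of 10 genes that lie before the start are shown because they are the sequences through which a shared control of these genes would be looked for, with the core in capitals and its strand beside the coordinates.
PSMA4, chr15:78540645-78540683, plus strand: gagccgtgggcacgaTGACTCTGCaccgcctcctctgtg
PSMB3, chr17:38752622-38752660, plus strand: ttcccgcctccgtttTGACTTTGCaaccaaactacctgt
PSMC5, chr17:63827649-63827687, minus strand: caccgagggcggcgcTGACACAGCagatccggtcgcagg
PSMD3, chr17:39980755-39980793, plus strand: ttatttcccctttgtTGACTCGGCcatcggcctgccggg
PSMD5, chr9:120843033-120843071, minus strand: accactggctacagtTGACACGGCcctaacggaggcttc
PSMD9 (first site), chr12:121888626-121888664, minus strand: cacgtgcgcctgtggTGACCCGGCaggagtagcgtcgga
PSMD9 (other site), chr12:121888673-121888711, plus strand: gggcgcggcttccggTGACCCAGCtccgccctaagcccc
PSMD12, chr17:67366719-67366757, minus strand: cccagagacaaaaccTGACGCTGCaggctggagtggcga
PSME1, chr14:24136093-24136131, plus strand: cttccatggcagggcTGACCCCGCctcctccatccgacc
PSME2, chr14:24146762-24146800, minus strand: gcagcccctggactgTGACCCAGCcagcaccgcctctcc
PSME4, chr2:53971004-53971042, plus strand: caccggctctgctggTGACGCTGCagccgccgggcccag
The sites lie 34 (PSME4) to 175 (PSME2) bases before the start. PSMC4, PSMD1 and, at a further site, PSMD3 held the core past the start, where it is not shown. In the authors' deposited table the 12 members with the core had a median log2 fold change of -0.024 with shRNA63, above 0 in 5, and the 23 matched members without it had 0.14, above 0 in 19. With shRNA95 these medians of the authors' deposited table were 0.13, above 0 in 9 of 12, and 0.24, above 0 in 18 of 23.

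Other motifs searched on both strands of the same windows were the NF-Y box CCAAT, the ETS core CCGGAAG and TGTGGT, a core of the RUNX proteins to which AML1 belongs. CCAAT stood in 17 of 42 member promoters (40.5%) beside 34.6% of all promoters, CCGGAAG in 13 (31.0%) beside 10.3%, and TGTGGT in 6 (14.3%) beside 13.1%. In the PSMD9 promoter an antioxidant core and a TGTGGT overlapped. A match is a run of letters and was not tested for binding. The genes of the factors themselves were measured. NFE2L1 was at 123 FPKM with shRNA63 against 152 FPKM in controls, and at 165 FPKM with shRNA95 against 147 FPKM, with log2 fold changes of -0.30 (error 0.34) and 0.17 (error 0.35) in the authors' deposited table. NFE2L2, which encodes NRF2, was at 43.0 FPKM with shRNA63 against 54.2 FPKM and at 56.7 FPKM with shRNA95 against 52.5 FPKM. Neither passed the test. NFYA, the sequence-binding subunit of NF-Y, fell with shRNA95 by 0.66 (error 0.29, q = 0.0350) in the authors' deposited table, with 26.9 FPKM against 42.6 FPKM in controls, and stood at 51.8 FPKM with shRNA63 against 44.0 FPKM. It was the 1 called gene of 13 transcription regulators with shRNA95, beside 4.4% of all genes. The difference of NFYA between hairpins did not pass the test described below.

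The alpha ring, the gate of the core, had the highest median level of the groups in controls. Its 7 genes lay between 171 FPKM (PSMA2) and 389 FPKM (PSMA4) in the controls of the shRNA63 table, with a median of 271.5 FPKM with shRNA63 against 259 FPKM in controls. With shRNA95 the median was 273 FPKM against 251 FPKM. PSMA1 had 271.5 FPKM with shRNA63 against 223 FPKM in controls and 273 FPKM with shRNA95 against 216 FPKM, the largest log2 fold changes of the ring in the authors' deposited table at 0.29 (error 0.42) and 0.34 (error 0.42). PSMA4, the second most abundant of all members in controls, had 381 FPKM with shRNA63 against 389 FPKM and 442 FPKM with shRNA95 against 377 FPKM. PSMA6 was the lowest of the ring by fold change with both hairpins. It stood at 241 FPKM with shRNA63 against 259 FPKM in controls and at 188 FPKM with shRNA95 against 251 FPKM. For PSMA6 the authors' deposited table gives -0.10 (error 0.33) and -0.42 (error 0.33, unadjusted p = 0.0737). Of the 7 genes, 4 lay above control with shRNA63 and 6 with shRNA95, and none passed the test. The log2 fold changes of PSMA2, PSMA3, PSMA5 and PSMA7 in the authors' deposited table were -0.012, 0.12, 0.11 and 0.12 with shRNA63 and 0.31, 0.28, 0.32 and 0.10 with shRNA95.

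The beta ring held 3 of the 4 members with the smallest p-values. PSMB4, a structural subunit, had 354 FPKM with shRNA63 against 252 FPKM in controls, which is 141% of control, and 288 FPKM with shRNA95 against 244 FPKM, which is 118%. Its log2 fold change given by the authors' deposited table was 0.49 (95% interval 0.011 to 0.97, p = 0.0047, q = 0.0765) with shRNA63 and 0.24 (interval -0.25 to 0.73) with shRNA95. PSMB7, the subunit with trypsin-like activity, stood at nearly the same share of control with both hairpins. It had 261 FPKM with shRNA63 against 195 FPKM in controls and 253 FPKM with shRNA95 against 189 FPKM. For PSMB7 the authors' deposited table gives 0.42 (error 0.25, p = 0.0148, q = 0.175) with shRNA63 and 0.42 (error 0.25, p = 0.0146, q = 0.186) with shRNA95. PSMB2, another structural subunit, had 129 FPKM with shRNA63 against 99.03 FPKM and 119 FPKM with shRNA95 against 96.0 FPKM. Its log2 fold changes in the authors' deposited table were 0.39 (error 0.20, p = 0.0242, q = 0.24) and 0.31 (error 0.20, p = 0.0701). These 3 genes each have a locus of their own.

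The catalytic subunits PSMB5 and PSMB6 stood closer to control than PSMB7 with both hairpins. PSMB5, which carries the chymotrypsin-like site that bortezomib binds, had 218 FPKM with shRNA63 against 226 FPKM in controls and 230.5 FPKM with shRNA95 against 219 FPKM. The 95% interval of its log2 fold change given by the authors' deposited table ran between -0.64 and 0.54 with shRNA63 and between -0.51 and 0.66 with shRNA95. PSMB6, the caspase-like subunit, had 116 FPKM with shRNA63 against 95.02 FPKM and 112 FPKM with shRNA95 against 92.1 FPKM, log2 fold changes of 0.29 (error 0.26) and 0.28 (error 0.26) in the authors' deposited table. PSMB1 and PSMB3, structural subunits, had values of 0.26 and 0.18 with shRNA63 and 0.11 and 0.16 with shRNA95 in the authors' deposited table. In the whole ring, 7 of 8 genes lay above control with shRNA63, all but PSMB5, and 8 of 8 with shRNA95. The median log2 ratio of the ring was 0.33 and 0.26, the highest of the 7 role groups with more than 1 gene with shRNA63.

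In cells exposed to interferon gamma the catalytic subunits PSMB5, PSMB6 and PSMB7 are replaced by PSMB8, PSMB9 and PSMB10, which make the immunoproteasome. PSMB10 was the least abundant member in controls, where it lay above 75.4% of tested genes of the shRNA63 table. It had 41.9 FPKM with shRNA63 against 30.1 FPKM in controls, and PSMD5, PSME4 and PSMD1 lay below it with shRNA63. With shRNA95 it had 46.2 FPKM against 29.2 FPKM, the highest share of control among members at 159%. For PSMB10 the authors' deposited table gives 0.48 (error 0.56) with shRNA63 and 0.67 (error 0.50, p = 0.0609, q = 0.455) with shRNA95. As a share of its counterpart PSMB7 it was 16.1% with shRNA63 against 15.4% in controls and 18.3% with shRNA95 against 15.5%. PSMB8 was 10.6% of PSMB5 with shRNA63 against 11.2% in controls, and 11.4% with shRNA95 against 11.2%. PSMB9 was lower still, at 1.41% of PSMB6 with shRNA63 against 2.24% in controls and 1.24% with shRNA95 against 2.24%. The constitutive mRNAs were thus the more abundant of each pair in all groups. PSMA8, the testis alpha subunit, was listed at 0 in every group of the JMJD1C tables, and PSMB11, the thymus beta subunit, reached at most 0.031 FPKM.

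The ATPase ring, the motor that unfolds substrates, was less abundant than the core. Its median was 127 FPKM with shRNA63 against 124 FPKM in controls and 127 FPKM with shRNA95 against 121 FPKM, which is 48.8% of the median of the core with shRNA63 against 55.9% in controls, and 54.4% with shRNA95 against 55.9%. PSMC1 had 98.9 FPKM with shRNA63 against 69.2 FPKM in controls, 143% of control, and 76.6 FPKM with shRNA95 against 67.0 FPKM. Its log2 fold change given by the authors' deposited table was 0.52 (error 0.27, p = 0.0318, q = 0.283) with shRNA63, the highest of all members there, and 0.19 (error 0.27) with shRNA95. PSMC2 had 92.5 FPKM with shRNA63 against 70.8 FPKM and 85.5 FPKM with shRNA95 against 68.6 FPKM, log2 fold changes of 0.39 (error 0.39) and 0.32 (error 0.40) in the authors' deposited table. PSMC5, the most abundant ATPase mRNA, had 267 FPKM with shRNA63 against 294 FPKM and 294 FPKM with shRNA95 against 285 FPKM. PSMC3 had 160.5 FPKM with shRNA63 against 155 FPKM and 142 FPKM with shRNA95 against 149.9 FPKM. PSMC4 and PSMC6 had log2 fold changes of -0.016 and 0.083 with shRNA63 and of 0.093 and 0.059 with shRNA95 in the authors' deposited table.

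Of the PSMD genes, the base subunits without ATPase activity held the lowest fold change with shRNA63. PSMD1, a large scaffold of the base, had 40.1 FPKM with shRNA63 against 54.4 FPKM in controls, 73.8% of control, and 51.9 FPKM with shRNA95 against 52.7 FPKM. For PSMD1 the authors' deposited table gives -0.44 (error 0.30, p = 0.0681, q = 0.438) with shRNA63 and -0.020 (error 0.29) with shRNA95. PSMD2, the scaffold that docks ubiquitin-like domains, was the most abundant member in controls, with 419.7 FPKM with shRNA63 against 397 FPKM and 372 FPKM with shRNA95 against 385 FPKM. Its locus in the tables, on chromosome 3 of hg19, holds 22 genes, and its errors of 0.71 and 0.81 were the widest of the members. PSMD4, a ubiquitin receptor, had 139.5 FPKM with shRNA63 against 115 FPKM and 124 FPKM with shRNA95 against 112 FPKM, log2 fold changes of 0.28 (error 0.27) and 0.15 (error 0.29) in the authors' deposited table.

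The lid, which removes ubiquitin from the substrate, lay above control in 7 of 8 genes with shRNA63, all but PSMD12, and in 8 of 8 with shRNA95, with medians of 0.17 and 0.22 on the log2 ratio. PSMD14, the deubiquitinase of the lid, had 74.3 FPKM with shRNA63 against 68.5 FPKM in controls and 83.1 FPKM with shRNA95 against 66.4 FPKM. Its log2 fold changes in the authors' deposited table were 0.12 (error 0.25) and 0.32 (error 0.25, p = 0.0634, q = 0.464). PSMD11 had the highest value of the lid with shRNA63, at 139 FPKM against 105 FPKM and 0.41 (error 0.42) in the authors' deposited table. PSMD7 had the highest with shRNA95, at 100.5 FPKM against 78.3 FPKM and 0.36 (error 0.26) in the authors' deposited table. PSMD12 had 67.9 FPKM with shRNA63 against 73.0 FPKM and 79.3 FPKM with shRNA95 against 70.8 FPKM. The remaining lid genes, PSMD3, PSMD6, PSMD8 and PSMD13, had 0.37, 0.21, 0.018 and 0.14 with shRNA63 and 0.035, 0.067, 0.21 and 0.24 with shRNA95 in the authors' deposited table.

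Among the PSMD symbols, PSMD5, PSMD9 and PSMD10 belong to chaperones that help to assemble the base and leave the finished particle. They were the least abundant group, with a median of 63.04 FPKM with shRNA63 against 49.5 FPKM in controls and 52.5 FPKM with shRNA95 against 48.0 FPKM. PSMD5 had 27.9 FPKM with shRNA63 against 34.8 FPKM and 28.1 FPKM with shRNA95 against 33.7 FPKM, log2 fold changes of -0.32 (error 0.33) and -0.26 (error 0.31) in the authors' deposited table. PSMD10, also studied as the oncoprotein gankyrin, had 63.04 FPKM with shRNA63 against 49.5 FPKM and 52.5 FPKM with shRNA95 against 48.0 FPKM. PSMD9 had 80.5 FPKM with shRNA63 against 73.8 FPKM and 81.0 FPKM with shRNA95 against 71.6 FPKM. A second row with the symbol PSMD9 had 16.9 FPKM with shRNA63 against 18.9 FPKM and 16.0 FPKM with shRNA95 against 18.3 FPKM, with errors of 0.95 and 1.04, and was not used as the member.

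The activators lay on both sides of control. PSME1 and PSME2, which form the cap induced by interferon gamma and lie 1775 bases apart on chromosome 14 (hg19), had 145 and 149 FPKM with shRNA63 against 138.5 and 147 FPKM in controls. With shRNA95 they had 153 and 175 FPKM against 134 and 143 FPKM. Their log2 fold changes in the authors' deposited table were 0.070 (error 0.23) and 0.021 (error 0.43) with shRNA63 and 0.19 (error 0.23) and 0.30 (error 0.40) with shRNA95. PSME3, the nuclear activator, had 129.6 FPKM with shRNA63 against 139 FPKM and 125 FPKM with shRNA95 against 134.5 FPKM. PSME4, a large activator known for its work in spermatogenesis and DNA repair, had 35.7 FPKM with shRNA63 against 42.4 FPKM and 34.98 FPKM with shRNA95 against 41.1 FPKM. For PSME4 the authors' deposited table gives -0.25 (error 0.29) and -0.23 (error 0.29). PSMF1, a regulator first described as an inhibitor of the core, had 183 FPKM with shRNA63 against 166 FPKM and 153 FPKM with shRNA95 against 161 FPKM. Its log2 fold changes in the authors' deposited table were 0.14 and -0.071, each with an error of 0.21.

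Set side by side, the classes had medians of the log2 ratio of 0.18 (core), 0.067 (ATPases), 0.13 (PSMD) and 0.021 (PSME and PSMF1) with shRNA63. With shRNA95 they were 0.28, 0.075, 0.16 and -0.071 in the same order of classes. The core stood highest and the class of PSME and PSMF1 lowest with both hairpins, as a description with no test between classes. The activators without PSMF1 had medians of -0.038 with shRNA63 and 0.038 with shRNA95. Without the members that share a locus, the medians with shRNA63 were 0.27 for the core and 0.27 for PSMD.

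**Figure D3:**
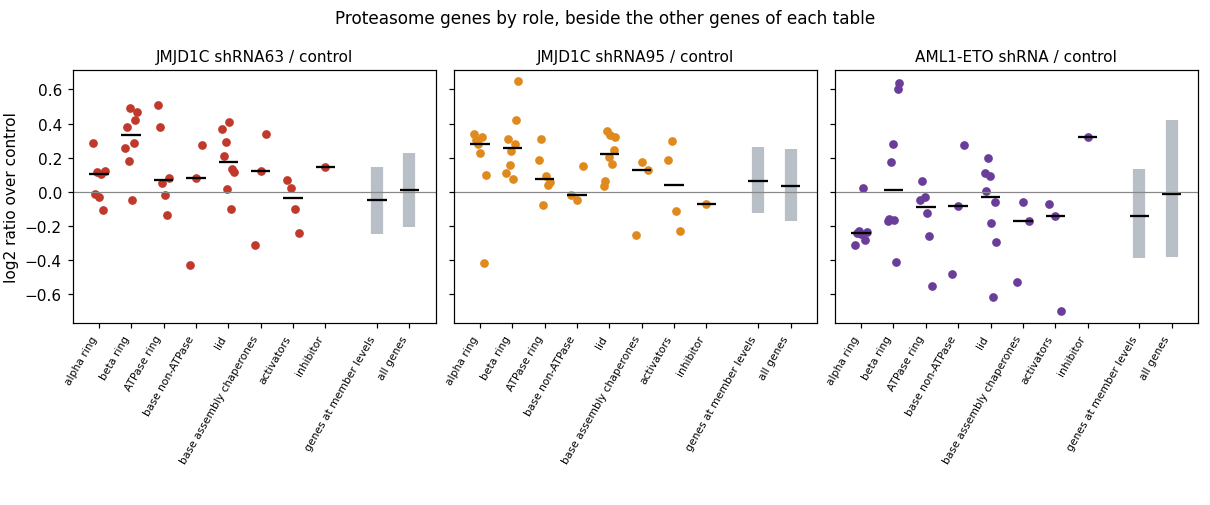
Log2 ratio over control of each proteasome gene by role (points) with the median of the role (black line), for JMJD1C shRNA63, JMJD1C shRNA95 and AML1-ETO shRNA; the bars at the right span the middle 50% of all genes and of genes at member levels, with their median. In the first and second panels the value is log2((FPKM + 1)/(FPKM + 1)) and in the third the authors' log2 fold change; the beta ring (medians 0.33 and 0.26) lies above the activators (-0.038 and 0.038) with both hairpins.

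To compare the hairpins with each other, the fold change with shRNA95 was subtracted from that with shRNA63 on the log2 scale and divided by the combined error of both. Of 14414 genes, 157 (1.09%) differed at an adjusted p under 0.05, and 5.56% at an unadjusted p under 0.05. No proteasome gene differed in either way, with a smallest unadjusted p of 0.312 (PSMD1). The differences, shRNA63 minus shRNA95, ran between -0.42 (PSMD1) and 0.34 (PSMD3), 20 below 0 and 20 above. Their median was -0.0070, beside -0.036 over all genes and -0.12 over genes at member levels. The median error of such a difference was 0.40, so small differences between the hairpins were not detectable.

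With AML1-ETO shRNA, in 1 library against 1 control library, 39 members were tested and PSME3 was not. None was called by Cuffdiff's q in the authors' deposited table, where 0.411% of 22406 genes were, and none passed an unadjusted p under 0.05, where 6.67% of all genes did, 3.46% with a positive value. With no replicates there, the p-values set 1 library against the other and say nothing of the conditions. In the authors' deposited table the log2 fold change was above 0 for 12 of 39 members, beside 49.1% of all genes and 35.8% of the genes at member levels. Member levels here are control levels of the shRNA63 comparison. The median over members in the authors' deposited table was -0.14, with -0.014 over all genes and -0.14 over genes at member levels. Errors were wide, with a median of 0.54, and the 95% interval was within a 2-fold change for 1 of 39 members, PSMB2.

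With AML1-ETO shRNA the alpha ring had 6 of 7 values below 0, with a median of -0.24 in the authors' deposited table. The lowest members in the authors' deposited table were PSME4 at -0.70 (error 0.50), PSMD12 at -0.62 (error 0.56) and PSMC6 at -0.55 (error 0.53). The highest in the authors' deposited table were PSMB10 at 0.64 (error 1.08) and PSMB7 at 0.60 (error 0.47). None of these intervals excluded 0. PSMA6, PSMD1, PSMD5 and PSME4 had negative values in all 3 tables, none past the test. More members, PSMA5, PSMB3, PSMB4, PSMB7, PSMB10, PSMC2, PSMD3, PSMD4, PSMD6, PSMD7 and PSMD8, had positive values in all 3, also none past the test. The share of all genes with 1 sign throughout was not counted. The median of the PSMD genes was -0.074 in the authors' deposited table and 0.094 without the members that share a locus.

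The 9 related lists hold 68 tested genes, of which 2 were called with shRNA63 and 3 with shRNA95, beside 5.12% and 4.4% of all genes. These shares are near the background, so single calls below are no result about a list. The chaperones that build the core (PSMG1 to PSMG4 and POMP) had no called gene of 5 with either hairpin. POMP, the maturation factor of the core, had 66.9 FPKM with shRNA63 against 54.5 FPKM in controls and 54.2 FPKM with shRNA95 against 52.8 FPKM, and its log2 fold change with AML1-ETO shRNA was -1.43 (error 0.58, p = 0.015, q = 0.485) in the authors' deposited table. PSMG1 had 97.8 FPKM with shRNA63 against 114 FPKM and 125 FPKM with shRNA95 against 110.5 FPKM. Of 14 ubiquitin receptors, shuttles and deubiquitinases of the particle none was called. ADRM1, a ubiquitin receptor of the base, had 171 FPKM with shRNA63 against 133 FPKM and 130.4 FPKM with shRNA95 against 129 FPKM. The deubiquitinase UCHL5 had 76.1 FPKM with shRNA63 against 92.1 FPKM and 115 FPKM with shRNA95 against 89.3 FPKM, and the deubiquitinase USP14 had 104.5 FPKM with shRNA63 against 94.4 FPKM and 99.3 FPKM with shRNA95 against 91.5 FPKM.

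None of 6 genes for ubiquitin and its activating enzymes was called, and neither was VCP, the unfoldase that hands substrates to the proteasome. UBB had 725 FPKM with shRNA63 against 768 FPKM in controls and 849 FPKM with shRNA95 against 744 FPKM. VCP had 323 FPKM with shRNA63 against 311 FPKM and 311 FPKM with shRNA95 against 301 FPKM. Among its cofactors, FAF1 fell with shRNA63, with 30.9 FPKM against 64.7 FPKM in controls and a log2 fold change of -1.07 (error 0.28, q = 0.00214) in the authors' deposited table. With shRNA95 FAF1 had 55.6 FPKM against 62.7 FPKM, and the difference between hairpins did not pass its test. Of 5 tested interferon response genes 1 was called with shRNA95 and 0 with shRNA63. TAPBP, the tapasin of peptide loading, rose with shRNA95, at 49.2 FPKM against 27.0 FPKM and 0.87 (error 0.30, q = 0.00216) in the authors' deposited table, and had 27.5 FPKM with shRNA63 against 27.8 FPKM. Its difference between hairpins did not pass the test either.

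The COP9 signalosome, a complex that resembles the lid and acts on ubiquitin ligases, had 1 called gene of 9 with each hairpin, beside 5.12% and 4.4% of all genes, and the lid had 0 of 8 with each. COPS6 fell with shRNA63, with 87.3 FPKM against 166 FPKM in controls and a log2 fold change of -0.93 (error 0.20, q = 0.00214) in the authors' deposited table. With shRNA95 it had 238 FPKM against 161 FPKM, a log2 fold change of 0.56 (error 0.21, q = 0.272) in the authors' deposited table. COPS3 fell with shRNA95, with 32.8 FPKM against 73.4 FPKM and -1.16 (error 0.31, q = 0.00216) in the authors' deposited table, and had 58.2 FPKM with shRNA63 against 75.8 FPKM. For COPS3 the difference between hairpins did not pass its test. The median log2 ratio over the 9 genes of the signalosome was -0.21 with shRNA63 and 0.032 with shRNA95. The chaperonin CCT, a ring complex that folds proteins, had no called gene of 8, with medians of -0.19 with shRNA63 and 0.061 with shRNA95. Its median was -0.51 with AML1-ETO shRNA, with 8 of 8 below 0 in the authors' deposited table. No test of these complexes against the proteasome was made.

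**Figure D4:**
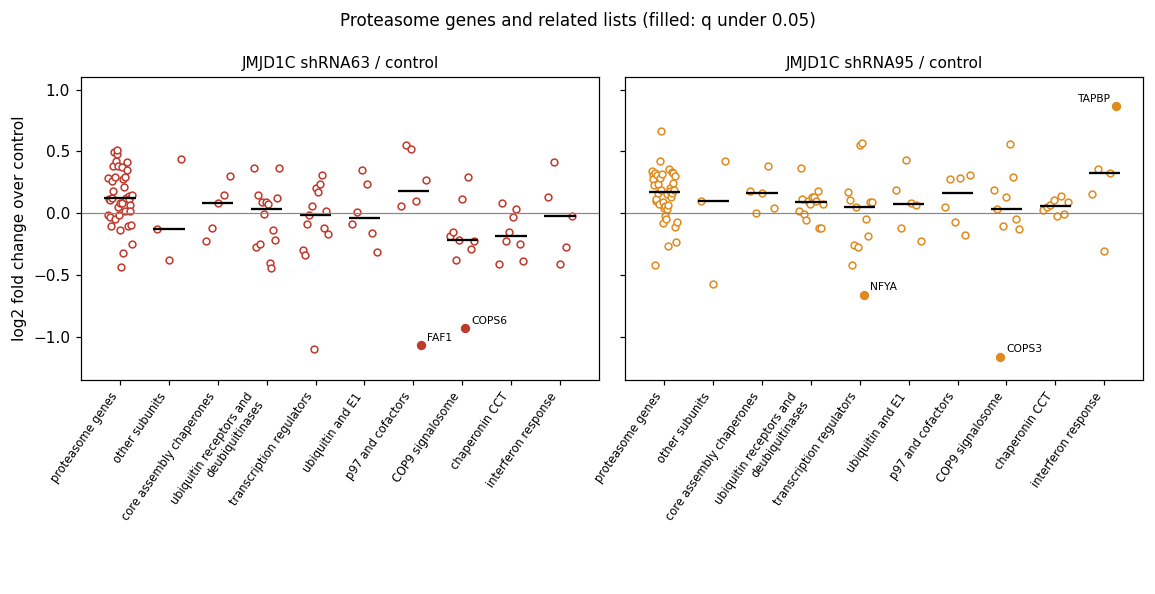
The authors' log2 fold change over control with JMJD1C shRNA63 (left) and JMJD1C shRNA95 (right) for the proteasome genes and 9 related lists, with the median of each list (black line); filled points passed q under 0.05 and are named. The proteasome genes hold no filled point in either panel, and the named genes are FAF1 and COPS6 with shRNA63 and NFYA, COPS3 and TAPBP with shRNA95.

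How the genes were counted could bear on some of these values. Of the 40 members, 23 share their locus with other genes, where fragments could be split between overlapping genes, and their median error with shRNA63 was 0.32, beside 0.27 for the 17 members with their own locus. The strand of the libraries was not given in the sources used here, so reads of a member and of an antisense gene cannot be told apart. The tables also list 26 pseudogenes of 8 members, none above 0.665 FPKM, so few fragments were assigned to these copies. They were found by symbol, so copies under other names were not counted. How reads shared between copies were placed was not tested. The members lie on 15 chromosomes, with 7 on chromosome 14 and 7 on chromosome 17.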

How the data were processed

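RNA was sequenced in 6 libraries, 2 per group, and grouped by the sample titles. The submitters' processing notes name TopHat2 2.0.8b, Cuffdiff 2.1.1 and hg19. Each deposited table of 62016 genes holds the authors' FPKM, 1 value per group, their log2 fold change, a score (the statistic of their test), and a p-value with its q-value, per the file headers. The FPKM columns of the AML1-ETO table belong to another series, so 2 value columns were not used. Read counts were not used, so depth is unknown. Genes with very low values gave a relative depth of 0.788 (shRNA63) and 0.708 (shRNA95) times that of controls. Nothing states that libraries came from separate cultures, so p-values measure only the spread between libraries, which may be technical.

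The members, lists and tests were chosen with earlier results of these data known. Calls were the authors' q under 0.05. Errors were the log2 fold change over the statistic, and 95% intervals were 1.96 errors either side. The normal deviate of the deposited p was 1.42 times the statistic in both JMJD1C tables. Medians used log2((FPKM + 1)/(FPKM + 1)) over tested genes with at least 1 FPKM in the higher group, and the authors' log2 fold change for AML1-ETO. Genes at member levels are those whose control FPKM in the shRNA63 comparison lies within the range of the members there. The same genes were used for shRNA95 and for AML1-ETO, whose own control levels were not used.

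The difference between hairpins was the difference of log2 fold changes over the root of the sum of both squared errors, read two-sided as a normal deviate and adjusted by Benjamini-Hochberg over 14414 genes, errors under the 10th percentile raised to it. This test was first run on simulated fold changes drawn independently for each hairpin, so without shared controls. In the real data controls are shared, which makes the test conservative.

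Named were members called in any table, the highest and lowest of each class and hairpin, the catalytic and immunoproteasome subunits, PSMD4, PSMD14, PSME1 to PSME4, PSMF1, the 3 most and 3 least abundant members, the called genes of the lists and 10 fixed genes of the pathway, of which 1 is not reported here. Other members were named after their values were seen, to account for each. Alternatives were another q, pseudocounts of 0.1 and 5, other FPKM minimums, members without a shared locus and other errors. Sequences came from RefSeq (GRCh38.p14). Python 3.11.15, pandas 2.3.3, numpy 2.4.6, scipy 1.17.1 and matplotlib 3.10.9 were used.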

Additional observations from a re-analysis of the deposited data

Results flagged for a closer look

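COPS6, a subunit of the COP9 signalosome, differed between the hairpins in the test of the difference itself. Its log2 fold change with shRNA63 minus that with shRNA95 was -1.50 (error 0.36). The p-value of this difference, adjusted by Benjamini-Hochberg over all 14414 genes, was 0.00551. The FPKM were 87.3 with shRNA63 against 166 in controls, and 238 with shRNA95 against 161 in controls.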

How the results depend on the processing

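No paired analysis was possible because the tables hold 1 value per group and none per library, and for the same reason leaving out a replicate was not run. Calls of proteasome genes moved only when the correction was dropped: 4 (shRNA63) and 1 (shRNA95) at an unadjusted p under 0.05, against 0 and 0. At q under 0.01 the genes called over the whole tables were 559 with shRNA63, 508 with shRNA95 and 0 with AML1-ETO shRNA. Genes that differ between hairpins numbered 157, and 631 with the part of the error from shared controls removed, 308 with no floor on the errors and 802 at an unadjusted p under 0.05; no proteasome gene was among the 157. Without members that share a locus, the medians with shRNA63 were 0.26 for all members and 0.27 for PSMD, against 0.12 and 0.13. All 240 alternatives for single members left the sign of their log2 fold change unchanged. Another q leaves the fold change itself as it is, and 1 FPKM added to both values keeps the sign of a ratio. Neither of these alternatives could alter a sign, and only subtracting the median of all measured genes could. The PSME and PSMF1 class had no member with a locus of its own. The median of PSMD genes with AML1-ETO shRNA turned to 0.094 without shared loci, against -0.074. Of 334 alternatives for 109 results, 8 were chosen after seeing the data. Depth is unknown, and group values allow no statement on single libraries.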
